A study of Mus musculus with 6 samples.

Results

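Neutrophil granule genes and the 2 subunits of calprotectin were followed in lungs of C57 mice after ovalbumin (OVA) treatment, which is widely used in mice to model allergic asthma. The genes were chosen by name as granule proteins and surface markers of neutrophils: Cd177, Mpo, S100a8, S100a9, Ltf, Ngp, Camp, Lcn2 and Elane. Of these 9 genes, 7 had a value on at least 4 of 6 arrays, out of 9774 named genes measured as often, and each was read by 1 probe. The probe of Ngp had no value on any array, as was the case for 2515 of the 17280 probes, and no probe of the annotation used carries the symbol Lcn2, so neither gene is analysed here.

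Each of the 6 two-colour arrays compared amplified lung RNA of 1 OVA-treated C57 mouse with amplified RNA pooled from lungs of C57 control mice. Age, sex, OVA dose, timing and the number of control mice in the pool are not given in the labels. The values are log ratios deposited for each array and were read as log2 ratios after each array was centred on its median. Neither the base of the logarithm nor the direction of the ratio is stated, so signs are as deposited, it is left undecided which sign means more RNA in OVA mice, and sizes are given as folds apart on a base of 2. With a natural logarithm Cd177, for example, would be 3.15-fold apart in place of 2.22-fold. A ratio gives no level, so the labelled tissue could not be checked through expression levels. Of the 7 club cell markers, which mark airway epithelium, all were measured on at least 4 arrays. What decides whether a spot has a value is not known, so this does not check the tissue either. The pool is a single control sample, and differences between control mice do not enter any test. In whole lung, a different number of neutrophils and a different amount of RNA per neutrophil cannot be told apart.

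Neutrophils carry their antimicrobial proteins in granules that are filled in sequence while the cell matures in the bone marrow. Azurophil granules come first and hold myeloperoxidase (Mpo) and neutrophil elastase (Elane), specific granules follow with lactoferrin (Ltf), the cathelicidin Camp, neutrophilic granule protein (Ngp) and lipocalin 2 (Lcn2), and CD177 sits on the cell surface and in specific granules. S100A8 and S100A9 form calprotectin, a calcium- and zinc-binding complex that is among the most abundant proteins of neutrophil cytosol. Transcripts of the azurophil proteins belong mainly to precursors in the marrow, while S100a8 and S100a9 are transcribed in mature neutrophils too. Allergic airway inflammation draws mainly eosinophils into the lung, with a varying share of neutrophils.

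The arrays measured between 10770 and 12969 probes each after control rows were left out. The array of mouse 3 stood apart from the rest, with a correlation across 8663 probes, which are not independent replicates, of 0.168 to 0.417 with the other arrays and the smallest SD of the ratio over probes (0.21, against 0.32 to 0.47). Mice 1, 2 and 4 had pairwise correlations of 0.82 to 0.861, and the correlation of mice 5 and 6 was 0.852. The labels give no batches, and these sets hold too few mice for values within them.

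Among the members, 2 of 7 passed limma's test of the mean ratio against 0 at a Benjamini-Hochberg adjusted p of 0.05, Cd177 and Mpo, both with a negative mean. Over all 11629 probes tested, 24.4% passed, so the members' share of 28.6% lay near the background. Counted over named genes in place of probes, the background was 25.6%. The median of the mean ratios was -0.131 over the 7 members and -0.00333 over all probes. The median absolute mean ratio was 0.131 over the members and 0.110 over all probes. Leaving out any 1 mouse left 0 or 1 members past the threshold. The plot of member ratios by mouse shows wide scatter for Cd177, S100a8 and S100a9 and values close to 0 for the others.

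**Figure D1:**
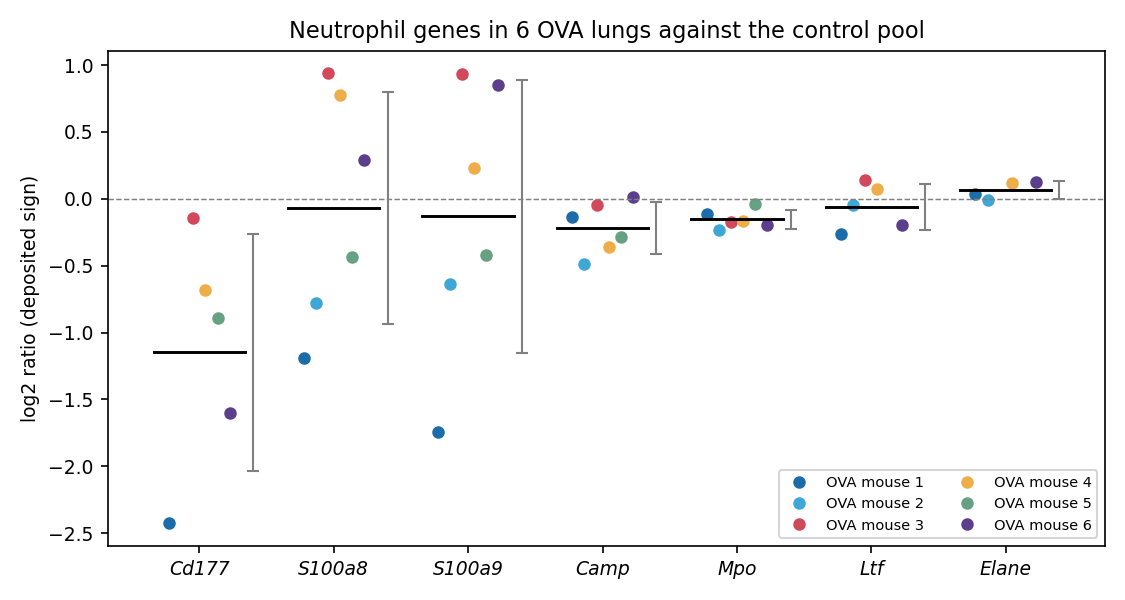
Log2 ratio (deposited sign) of each member on the y axis, 1 point per OVA mouse against the control pool, with the mean as a black line and the SD as a grey bar beside it. S100a8 and S100a9 have 3 mice on each side of 0, all 5 values of Cd177 are negative, and Mpo, Camp, Ltf and Elane stay between -0.486 and 0.139.

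The promoters of the pair of calprotectin genes, whose ratios had the same sign in each mouse, and of Cd177 and Mpo, the 2 members past the threshold, are shown because the results below turn on these 4 genes. The sequences run from 250 bases before to 20 bases after the annotated start of the gene, from RefSeq on GRCm38.p6, 5′ to 3′ on the strand of the gene. Capitals mark matches, on either strand, to a TATA box (TATAAA), to the purine-rich PU box of the myeloid factor PU.1 (GAGGAA) and to a core of the C/EBP factors of granulocytes (TTNNGNAA).
S100a8 (chr3:90668821-90669090, plus strand): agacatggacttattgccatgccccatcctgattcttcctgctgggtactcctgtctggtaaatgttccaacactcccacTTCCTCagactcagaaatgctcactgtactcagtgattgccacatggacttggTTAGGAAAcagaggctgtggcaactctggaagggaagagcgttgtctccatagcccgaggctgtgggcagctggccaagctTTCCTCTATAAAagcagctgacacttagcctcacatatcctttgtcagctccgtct
S100a9 (chr3:90695702-90695971, minus strand): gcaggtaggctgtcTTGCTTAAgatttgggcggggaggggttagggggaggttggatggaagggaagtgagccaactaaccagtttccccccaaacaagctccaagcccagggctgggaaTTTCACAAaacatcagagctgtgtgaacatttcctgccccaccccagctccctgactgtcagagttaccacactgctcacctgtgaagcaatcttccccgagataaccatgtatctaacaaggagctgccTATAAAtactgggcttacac
Cd177 (chr7:24760292-24760561, minus strand): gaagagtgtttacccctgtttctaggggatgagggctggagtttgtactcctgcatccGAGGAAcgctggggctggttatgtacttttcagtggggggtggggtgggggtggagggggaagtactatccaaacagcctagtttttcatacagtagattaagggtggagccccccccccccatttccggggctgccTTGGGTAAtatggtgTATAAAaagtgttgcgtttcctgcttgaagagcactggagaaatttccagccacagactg
Mpo (chr11:87793534-87793803, plus strand): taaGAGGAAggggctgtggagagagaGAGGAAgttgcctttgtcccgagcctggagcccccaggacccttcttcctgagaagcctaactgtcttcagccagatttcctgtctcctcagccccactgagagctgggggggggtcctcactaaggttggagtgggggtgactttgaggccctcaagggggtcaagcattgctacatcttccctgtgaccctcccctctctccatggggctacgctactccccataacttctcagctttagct

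TATAAA lies 30 to 25 bases before the start of S100a8, 40 to 35 bases before that of Cd177 and at bases 1 to 6 after the annotated start of S100a9. It was found in 3 of the 9 promoters of the genes named by the rule and in 12.9% of 32851 promoters of the same length. GAGGAA was found in 6 of the 9 and in 25.1% of all promoters. Both copies in S100a8 lie on the opposite strand, and the nearer one, 36 to 31 bases before the start, borders TATAAA and shares no base with it. TTNNGNAA was found in 6 of the 9 and in 38.5% of all. The Mpo window holds 2 copies of GAGGAA and no match to the other patterns, and the S100a9 window has 2 matches to TTNNGNAA and none to GAGGAA. These matches describe letters and not binding.

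The calprotectin genes had no common sign over the mice. S100a8, the smaller subunit, had log2 ratios of -1.19, -0.78, 0.94, 0.77, -0.44 and 0.29 in mice 1 to 6. S100a9, its partner, had -1.75, -0.64, 0.94, 0.23, -0.42 and 0.85. Both subunits were negative in mice 1, 2 and 5 and positive in mice 3, 4 and 6. The range over the mice was 4.39-fold for S100a8 and 6.42-fold for S100a9.

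The means lay near 0 because the mice fell on both sides of it. S100a8 averaged -0.068 ± 0.87 (SD, n = 6) and S100a9 -0.13 ± 1.02 (SD, n = 6), and neither passed limma's test (adjusted p = 0.885 and 0.809). The 95% intervals ran from -0.75 to 0.62 for S100a8 and from -0.93 to 0.67 for S100a9, so mean differences of up to 1.68-fold and 1.91-fold on the negative side and 1.53-fold and 1.59-fold on the positive side lie within them. The sign of the mean turned with single mice. Without mouse 1 the means were 0.16 and 0.19, and S100a8 was also positive without mouse 2 (0.075) and without mouse 5 (0.006). Without mouse 3 they were -0.27 and -0.34.

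The spread between mice set the calprotectin genes apart from most of the array. Their SDs lay at percentiles 99.3 and 99.6 of the 11629 probes, where the median SD was 0.14. They shared this with other genes: Cd177 lay at percentile 99.4, and 80 probes, S100a8 included, had an SD at least that of S100a8. For 10 sequences repeated 17 times on an array, the median SD of repeats was 0.0911 to 0.136 by array and the highest 0.172 to 0.5. In mouse 3, whose array was the narrowest, 19 of 11439 probes were above S100a8 and 20 above S100a9. In mouse 1, 246 of 12131 probes were below S100a8 and 102 below S100a9. The plot of mean against SD places both at the upper edge of the cloud of probes with a mean near 0.

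**Figure D2:**
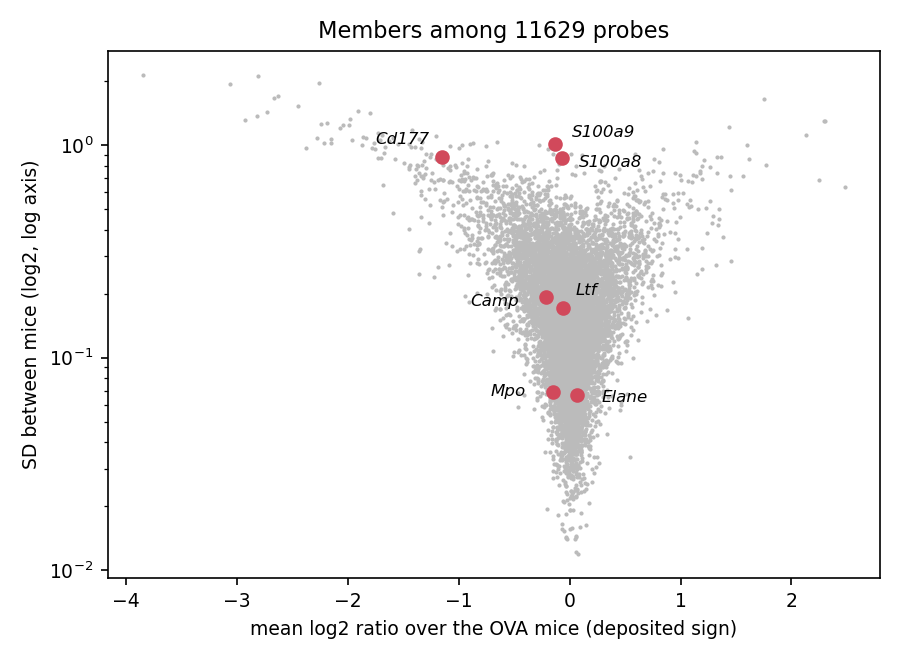
Mean log2 ratio over the OVA mice (x axis, deposited sign) against the SD between mice (y axis, log scale) for 11629 probes in grey, with the 7 members in red. S100a8 and S100a9, with SDs of 0.87 and 1.02, sit above the probes of similar mean, Cd177 lies on the negative side at -1.15, and Mpo and Elane are among the probes of small SD.

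The 2 subunits had ratios of the same sign in each of the 6 mice. S100a8 minus S100a9 was 0.552, -0.141, 0.002, 0.541, -0.013 and -0.561 in mice 1 to 6, a mean of 0.063 ± 0.43 (SD, n = 6). Over the 6 mice Pearson's r was 0.91 (exact permutation p = 0.0125, two-sided) and Spearman's rho 0.943 (exact permutation p = 0.0167). Across the 6 pairs formed by S100a8, S100a9, Camp and Mpo, the members with 6 values, the adjusted values were 0.075 and 0.1, so the relation did not pass the correction. Without mice 1 and 3, the farthest from the median of S100a8, r was 0.783 over the 4 mice left. The other 5 pairs had r between -0.371 and 0.385 and adjusted p of 0.702 or above by exact permutation. These values also hung on single mice. Without mouse 1, r was 0.888 for S100a9 and Camp and 0.583 for S100a8 and Camp, against 0.856 for S100a8 and S100a9. Without the 2 mice farthest from the median of the first gene, r was 0.85 for S100a9 and Camp (mice 1 and 3 left out), 0.982 for Mpo and S100a8, 0.735 for Mpo and S100a9, 0.476 for Mpo and Camp (mice 1 and 5 left out) and 0.419 for S100a8 and Camp, so over 4 mice a high r was not particular to the calprotectin pair. By root-mean-square difference of the 6 ratios, S100a9 was the second nearest of 8662 probes to S100a8, and S100a8 the second nearest to S100a9 (0.394 for both). The plot of the pair shows the points along the line of equal ratios.

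**Figure D3:**
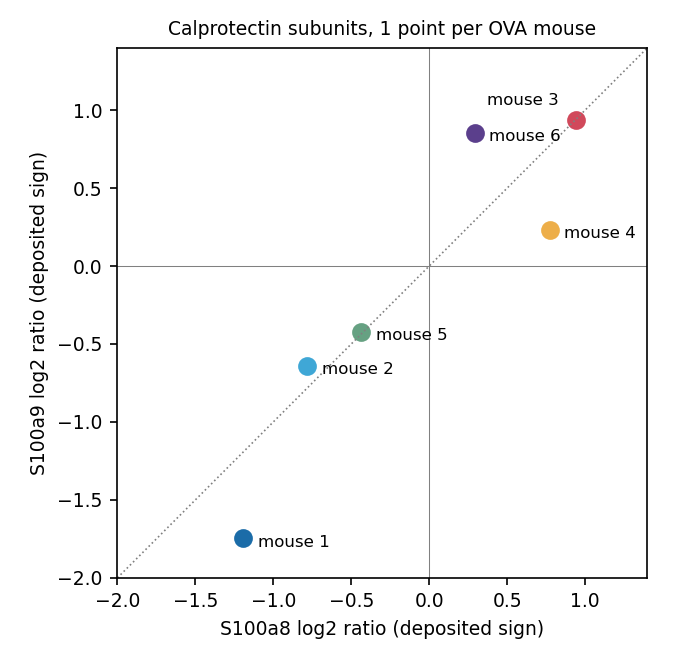
S100a8 log2 ratio (x axis) against S100a9 log2 ratio (y axis), 1 point per OVA mouse, deposited sign, with a dotted line where both ratios are equal. Mice 1, 2 and 5 lie in the lower left, mice 3, 4 and 6 in the upper right, and the farthest from the line are mice 1, 4 and 6.

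Genes outside the members that lay nearest to S100a8 were Sh2d1a, a signalling adaptor of T and NK cells, with a root-mean-square difference of 0.373, Dok3, an adaptor of B and myeloid cells, with 0.395, and Ctsw, a protease of cytotoxic lymphocytes, with 0.397. Nearest to S100a9 were Stk17b, a kinase of lymphocytes, with 0.348, the cytokine subunit Ebi3 with 0.48 and Sh2d1a with 0.49. Sh2d1a had ratios of -0.95, -0.62, 0.58, 0.046, -0.24 and 0.074 in mice 1 to 6. Stk17b had -1.56, -0.52, 0.28, -0.11, -0.12 and 0.65. In both genes mouse 1 was lowest and mice 1, 2 and 5 were negative, as for calprotectin, while Stk17b was also negative in mouse 4. Such likeness follows from choosing the genes by nearness to the same 6 ratios and is no independent result.

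Markers of other cell types moved in part with calprotectin. The T cell markers, 4 of 8 genes tested, had a mean ratio over the 3 genes measured in every mouse (Cd3e, Cd3d and Cd8a) of -0.557, -0.332, 0.132, -0.084, -0.186 and 0.017 in mice 1 to 6. Mice 1, 2 and 5 were again the lowest in this score. Cd247, the other T cell gene tested and the one that passed, ran differently, with 0.57, 0.20, 0.60 and 0.34 in mice 2, 3, 4 and 5 and its lowest value in mouse 3. The monocyte and macrophage markers, 8 of 12 tested and all 8 measured in every mouse, had a mean ratio of -1.11, -1.09, 0.119, -0.479, -0.312 and -0.821. The B cell score, over 3 genes, was -0.541, -0.342, 0.308, -0.454, -0.594 and -0.33 in mice 1 to 6. The erythroid score, over 3 genes, was 0.129, -0.32, -0.378, -0.465, -0.607 and -0.588. It was highest in mouse 1, where both calprotectin subunits were lowest. The mast cell and basophil score lay between -0.275 and -0.06 over 3 genes. Of these, the basophil protease Mcpt8 was at -1.52, -0.96, 0.135, -0.328, 0.119 and -0.022 in mice 1 to 6. In mice 1 and 2 Tpsab1 was at 0.25 and 0.19 and Kit at 0.44 and 0.088. Over the 5 genes tested in this list the median mean ratio was 0.092, and 2 had a negative mean. Of the 10 eosinophil genes 3 could be tested, Alox15, Siglecf and Prg2, and of the platelet genes 3 of 6, with 1 gene of each list measured in every mouse. Alox15 was at -0.59 on average (limma, adjusted p = 0.0482) and missed the threshold without mouse 1, 2, 4, 5 or 6 (up to 0.132), and with robust moderation or a value on at least 3 arrays (0.0504 for both). Prg2, the eosinophil major basic protein, was at -0.056 (limma, adjusted p = 0.379) and Siglecf at 0.011 (adjusted p = 0.927), over 5 mice each. Among the other marker genes that passed were Cd247, a signalling chain of the T cell receptor, at 0.43 over 4 mice, Gp9, a platelet glycoprotein, at 0.37, and Slc4a1, the anion exchanger of red cells, at -0.57. None of 5 B cell and 5 mast cell and basophil genes passed in limma, where 24.4% of all probes passed. In each of these 2 lists 1 gene had an unadjusted p under 0.05, a share not counted over all probes. Cd247 missed the threshold without mouse 2, 4 or 5 (up to 0.0796) and Gp9 without mouse 4 or 6 (up to 0.0521). The part of these cell types in the calprotectin ratios was not tested.

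Cd177, which encodes a surface glycoprotein of neutrophils, had the largest absolute mean ratio of the members. Its log2 ratios were -2.43, -0.15, -0.68, -0.89 and -1.60 in mice 1, 3, 4, 5 and 6, with no value in mouse 2. All 5 values were negative, from near 0 in mouse 3 to the lowest in mouse 1. The mean was -1.15 ± 0.88 (SD, n = 5). This is 2.22-fold from the pool and passed limma's test (adjusted p = 0.0425, 95% interval -1.91 to -0.39). Among all probes, 1.5% passed the threshold with a mean at least 2-fold apart, and Cd177 was the only member of this kind. In mouse 6, where both calprotectin subunits were positive, 63 of 12969 probes were below Cd177.

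The call of Cd177 rested on single mice. Without mouse 3 the mean was -1.40 and passed (limma, adjusted p = 0.0213). Without mouse 1 it was -0.83 (adjusted p = 0.0537), without mouse 4 -1.27 (adjusted p = 0.0827), without mouse 5 -1.21 (adjusted p = 0.084) and without mouse 6 -1.04 (adjusted p = 0.119). Without mouse 2, which has no Cd177 value, the mean stayed at -1.15 and the adjusted p was 0.0651, with 1376 probes past the threshold in that fit. The sign was negative in all of these fits. An exact sign-flip permutation test gave p = 0.0625, the smallest p that 5 values allow.

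The azurophil granule enzymes had small ratios. Mpo, which makes hypochlorous acid, had log2 ratios of -0.11, -0.23, -0.18, -0.17, -0.037 and -0.19 in mice 1 to 6. It was negative in 6 of 6 mice, and 30.2% of the probes measured on all arrays had the same sign throughout. The mean was -0.15 ± 0.069 (SD, n = 6). This is 1.11-fold from the pool and passed limma's test (adjusted p = 0.027). The size lies at percentile 61.5 of all probes, the SD at percentile 12.4.

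Mpo passed without mouse 1 or mouse 5 and missed the threshold without mouse 2 (limma, adjusted p = 0.0862), mouse 3 (0.0536), mouse 4 (0.0812) or mouse 6 (0.0711), with a mean between -0.18 and -0.14. Elane, the serine protease neutrophil elastase, had ratios of 0.033, -0.012, 0.12 and 0.13 in mice 1, 2, 4 and 6 and no value in mice 3 and 5. It was the only member with a positive mean, 0.066 ± 0.067 (SD, n = 4), and did not pass (adjusted p = 0.384, 95% interval -0.061 to 0.19). Prtn3, which encodes proteinase 3 of the same granules and is not a member, was at -0.30 and negative in 6 of 6 mice without passing (adjusted p = 0.0686).

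The specific granule proteins Camp and Ltf also stayed near the pool. Camp, the precursor of the antimicrobial peptide CRAMP, had log2 ratios of -0.14, -0.49, -0.049, -0.36, -0.29 and 0.012 in mice 1 to 6, negative in 5 of 6. Its mean of -0.22 ± 0.19 (SD, n = 6) was 1.16-fold apart from the pool and missed the threshold (limma, adjusted p = 0.0627), and it passed with array weights (adjusted p = 0.0304). Ltf, which binds iron, had ratios of -0.27, -0.048, 0.14, 0.07 and -0.20 in mice 1, 2, 3, 4 and 6. With 3 values below and 2 above 0, its mean was -0.061 ± 0.17 (SD, n = 5, adjusted p = 0.563), with a 95% interval of -0.23 to 0.11. The lowest mouse was mouse 2 for Camp and mouse 1 for Ltf, S100a8, S100a9 and Cd177.

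Probes 6, 18 or 24 numbers apart had correlated ratios (mean r over the arrays 0.138, 0.105 and 0.113), so the strongest probe of like sign at these distances was looked up for each member. The probe of S100a9 lies 24 numbers from that of Mmp12, which was at -1.39 on average and at -2.35 in mouse 4 and -1.81 in mouse 6, where S100a9 was positive. The probe of S100a8 lies 18 from that of B3gnt2 (-0.42), negative in all mice. That of Ltf lies 6 from Clec10a (-0.71), that of Mpo 18 from Stat5a (-0.30) and that of Elane 24 from Xist (0.12, against 0.066 for Elane). Cd177 and Camp have no stronger neighbour of like sign. The part of neighbouring spots in these ratios was not tested.

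Other neutrophil genes were read from 5 lists of granule contents, cytosol and receptors. Without the members, 24 of their 46 genes could be tested and 4 passed, all negative, a share of 16.7% against 24.4% of all probes. The count moved with mouse 3: without it 12 of 24 passed, all negative, a share of 50% against 26.1% of all probes. With array weights 11 passed, 10 of them negative, against 29.5%. Without mouse 2 or mouse 6, 2 passed, against 11.8% and 14.7% of all probes. Their median ratio was -0.211, and 23 of the 24 had a negative mean, as did 50.9% of all probes. Chil1, a chitinase-like protein of specific granules that macrophages and alveolar epithelium also make, was at -1.31 ± 0.56 (SD, n = 6, limma adjusted p = 0.00597). Mmp8, the neutrophil collagenase, was at -0.41 ± 0.20 (SD, n = 6, adjusted p = 0.0104). Both passed without each mouse in turn, with adjusted p of at most 0.0262 and 0.0371.

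Itgb2, the integrin chain shared by leukocytes, was at -0.72 ± 0.47 (SD, n = 6, adjusted p = 0.0186) and Cybb, the catalytic subunit of the phagocyte oxidase, at -0.36 ± 0.21 (SD, n = 4, adjusted p = 0.0412) in limma. Itgb2 missed the threshold without mouse 2, 4 or 6 (limma, adjusted p up to 0.0631) and Cybb without mouse 1, 2, 5 or 6 (up to 0.118) and with array weights (-0.30, adjusted p = 0.0558). Of the oxidase genes, Ncf4 at -0.71 and Cyba at -0.46 did not pass. None of the 9 receptor genes tested passed in limma, while 6 had an unadjusted p under 0.05. Over all probes 24.4% passed, and the share with an unadjusted p under 0.05, at least as large, was not counted. Without mouse 3, 4 of the 9 passed, against 26.1% of all probes. With array weights 4 passed, against 29.5%, and with unmoderated variances 1 passed, against 12.4%. Trem1, an amplifying receptor of neutrophils and monocytes, was at -0.57 (adjusted p = 0.118) and Csf3r, the receptor of the growth factor G-CSF, at -0.48 (adjusted p = 0.0594). Ly6g, a defining surface marker of mouse neutrophils, was not among the genes tested. Cxcr2, the main chemokine receptor of neutrophils, had 4 values with a mean of -0.19 (adjusted p = 0.0627).

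**Figure D4:**
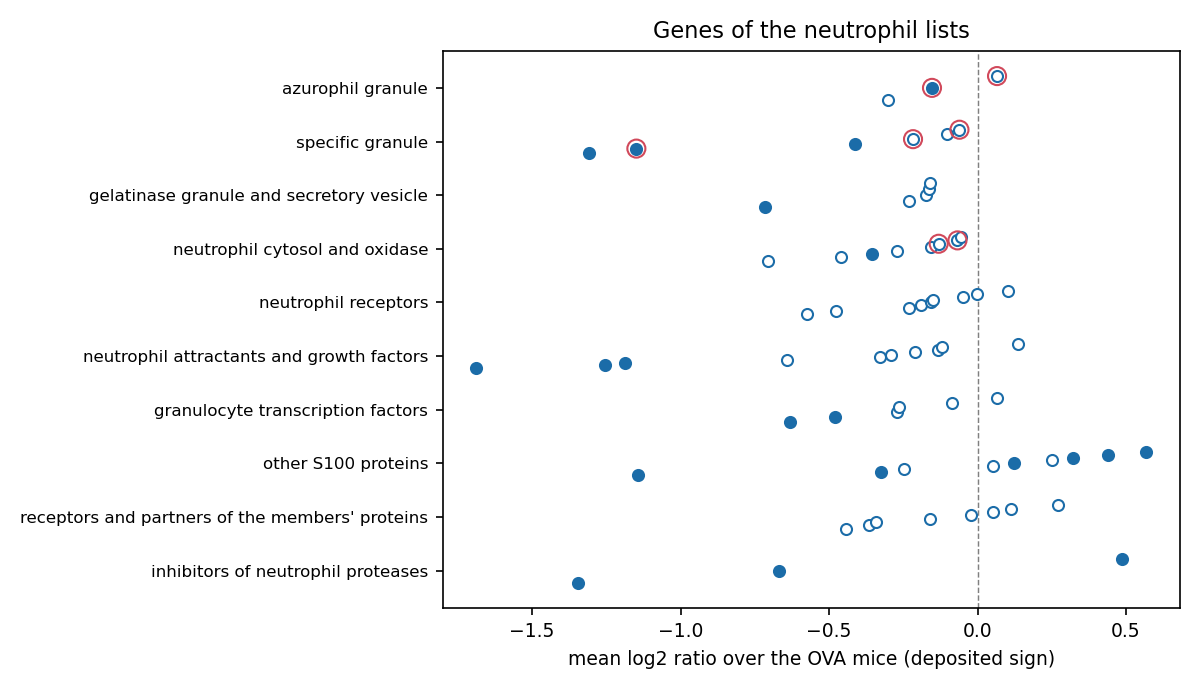
Mean log2 ratio over the OVA mice (x axis, deposited sign) of each tested probe in 10 lists, from azurophil granule at the top to protease inhibitors at the bottom. Filled points passed an adjusted p of 0.05, open points did not, and red rings mark the members. In the top 5 lists the filled points are all negative, from -1.31 to -0.15, while the S100 proteins have filled points on both sides.

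Signals that attract neutrophils or sustain their growth were read from 12 genes. Of 9 attractants and growth factors tested, 3 passed, all negative, with a list median of -0.328, where 24.4% of all probes passed. Without mouse 2 or mouse 4, 1 passed, against 11.8% and 11.4% of all probes. They were Cxcl1, a chemokine that attracts neutrophils through Cxcr2, at -1.69 ± 1.12 (adjusted p = 0.019), Il6 at -1.25 ± 0.91 (adjusted p = 0.0252) and Tnf at -1.19 ± 0.68 (adjusted p = 0.0126, SD, n = 6 each, limma), each negative in 6 of 6 mice. Cxcl1 missed the threshold without mouse 2 or 4 (limma, adjusted p up to 0.0625) and Il6 without mouse 2, 4 or 6 (up to 0.0748). Csf3, which encodes G-CSF, was at -0.21 over 4 mice and did not pass (adjusted p = 0.13).

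Of 6 granulocyte transcription factors tested, 2 passed, both negative, with a list median of -0.267, where 24.4% of all probes passed. Without mouse 2 none passed, against 11.8% of all probes. Without mouse 4, 5 or 6, 1 passed, against 11.4%, 17.6% and 14.7%. Myb, a factor of blood progenitors, was at -0.63 ± 0.43 and Cebpa, required for the first steps of granulocyte formation and also made in lung epithelium, at -0.48 ± 0.30 (SD, n = 6 each). Myb missed the threshold without mouse 2, 4, 5 or 6 (limma, adjusted p up to 0.0669) and Cebpa without mouse 2 (0.0548) and with quantile-normalized arrays (adjusted p = 0.0616). The inhibitors of neutrophil proteases had 3 calls among 3 genes tested, of 14 listed, where 24.4% of all probes passed. Serpina3n, a serine protease inhibitor, was at -1.34 ± 0.61, Slpi, an elastase inhibitor of airway secretions, at -0.67 ± 0.41, and the whey acidic protein family member Wfdc2 at 0.49 ± 0.17 (SD, n = 6 each). All 3 passed without each mouse in turn. None of 8 receptors and partners of the members' proteins passed in limma, where 24.4% of all probes passed. In this list 0 had an unadjusted p under 0.05, a share not counted over all probes. Without mouse 1, 2 passed, against 20.3% of all probes, and without mouse 3, 1 passed, against 26.1%. Itln1, which binds lactoferrin, was at -0.44 and Pecam1, which binds CD177, at -0.36.

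The S100 family showed no common sign. S100a8 and S100a9 lie next to each other in the cluster of S100 genes on mouse chromosome 3, of which 10 genes were measured. Of the 9 other S100 genes tested, which include S100g from outside the cluster, 6 passed in limma, 2 negative and 4 positive. Over all probes 24.4% passed. S100a4, a protein of fibroblasts and macrophages, was at -1.14 ± 0.83 (SD, n = 6, adjusted p = 0.0255), with mouse 3 alone above 0 at 0.32. S100a5 was at -0.33. On the positive side were S100a11 at 0.44 ± 0.15 (SD, n = 6, adjusted p = 0.00516), S100a13 at 0.32, S100a3 at 0.12 and S100g at 0.57.

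S100a11, S100a13 and S100a5 passed without each mouse in turn (limma, adjusted p at most 0.0391). S100a3 missed the threshold without any 1 of the 6 mice (0.0547 to 0.126), and S100a4 and S100g missed it without mouse 1, 2, 4, 5 or 6 (up to 0.0804 and 0.117). S100g also missed it with scaled arrays (adjusted p = 0.0606) and with quantile-normalized arrays (0.077). Without mouse 1, 2, 4, 5 or 6, 3 of the 9 other S100 genes passed. Over all probes 20.3%, 11.8%, 11.4%, 17.6% and 14.7% passed in these fits. S100a11, which follows S100a9 in the order along the chromosome, was positive in 6 of 6 mice. S100a6, which lies before them among the measured genes, ranged from -0.11 to 0.21. The plot of the cluster shows that the wide scatter of S100a8 and S100a9 was shared by S100a4 and not by the measured genes on either side.

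**Figure D5:**
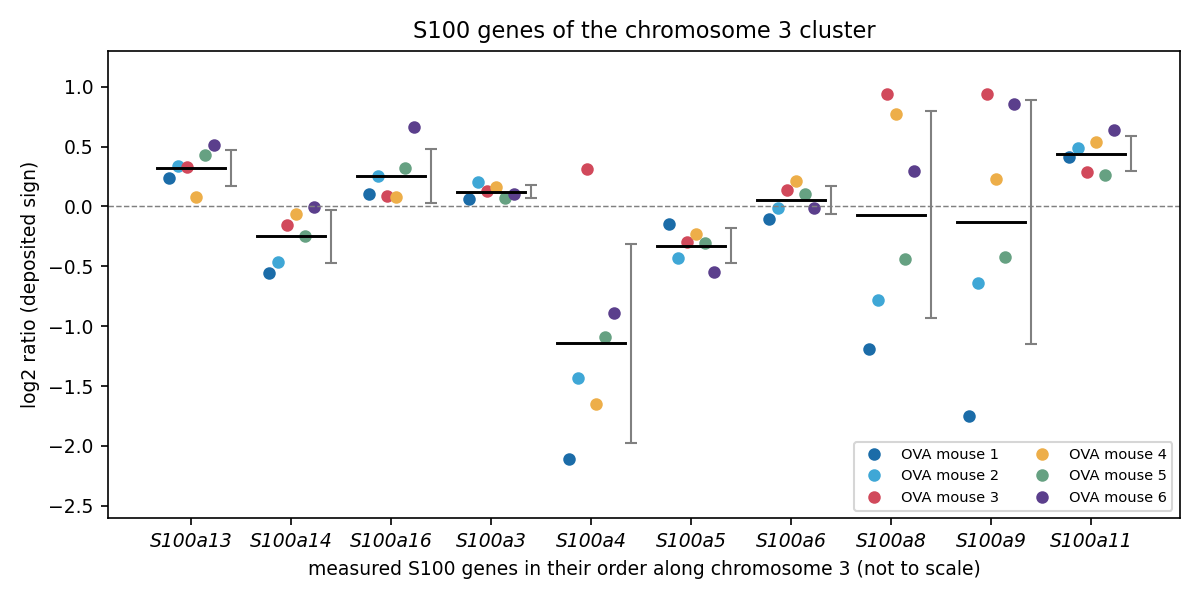
Log2 ratio (y axis, deposited sign) of the 10 measured S100 genes in their order along mouse chromosome 3 (x axis, not to scale), 1 point per OVA mouse, with the mean as a black line and the SD as a grey bar. S100a8, S100a9 and S100a4 have SDs of 0.83 to 1.02, and the other genes of 0.054 to 0.22.

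For orientation on the same sign convention, the mucous cell markers Clca1 and Muc5ac, which airway allergy is known to induce, were at -3.06 and -2.63 and the club cell markers Bpifa1 and Scgb1a1 at 1.62 and 1.38. Fcgr1 and Aif1, markers of monocytes and macrophages, were at -1.87 and -1.80. These are the largest ratios of their lists. Of the 8 monocyte and macrophage markers tested 2 passed and 7 had a negative mean, with Marco at 0.44 (limma, adjusted p = 0.247). Of the 7 mucous cell markers 3 passed and 6 had a negative mean, with Foxa3 at 0.075. Over all probes 24.4% passed. Cd177 and Mpo lay on the side of most of the mucous and macrophage genes in the mean. In mouse 3 the mucous cell score was 0.36 and the club cell score 0.375, against ranges of -2.62 to -1.55 and 0.675 to 1.77 in the other mice, and mouse 3 also had the highest ratio of S100a8, S100a9, Ltf and Cd177. Clca1 missed the threshold without mouse 2, 4 or 6 (limma, adjusted p up to 0.0577), Muc5ac without mouse 2 or 4 (up to 0.0596) and Aif1 without mouse 1, 2, 4, 5 or 6 (up to 0.0959), while Fcgr1, Bpifa1 and Scgb1a1 passed without each mouse.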

How the data were processed

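For every spot the authors deposited a log ratio, read here as log2 from the range of the values. No source used here gives the scanner, background correction, normalization, spot filter, log base or dye assignment. Of 17280 probes, 14722 had 1 gene symbol in the platform annotation, 1 had several and 2557 had none, and 14445 symbols were updated through gene IDs of a RefSeq table (GRCm38.p6, used for names and gene order). Rows that repeat 10 sequences (170 rows) and 4 plant rows were left out. Arrays were centred on the median of probes measured on all 6 arrays. For probes with a value on at least 4 arrays, limma 3.58.1 (R 4.3.3) fitted the mean ratio (intercept alone, eBayes, two-sided), with Benjamini-Hochberg adjustment over 11629 probes. The fit was tested on simulated ratios drawn independently for each probe and array, which checks the code and not the calls made here. The members and gene lists were chosen with earlier results of these data known, so no set test was run. Named genes are all members, every gene of the neutrophil lists past the threshold, up to 2 genes of the largest ratio in a list without a call or among the markers of a cell type, and the 3 named genes nearest to a member with a range of at least 1. Prtn3, Ncf4, Cyba, Cxcr2, Csf3, S100a6, Siglecf, Mcpt8, Tpsab1, Kit, Marco, Foxa3, Cd3d, Cd3e and the probe neighbours fall outside this rule and were picked with their values in view. The alternatives were other centring, scaling, filters, weights, variances, genes in place of probes, a fold floor and leaving out each mouse. The number of arrays limits the precision, and p-values measure the spread between these mice against 1 pool. Python 3.11.15 and matplotlib 3.10.9 drew the figures.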

Additional observations from a re-analysis of the deposited data

Results flagged for a closer look

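Among 44 sets of values by mouse, those of members, list scores and named neutrophil list genes, 4 held a mouse far from its nearest neighbour by Dixon's criterion. Chance flags about 1 in 20 such sets. Mouse 3 was the high one in 3 of them: the mucous cell score at 0.36, the B cell score at 0.308 and Itgb2 at 0.20. Mouse 4 was the high one for the protease inhibitor family gene Wfdc2, at 0.83. No member had such a mouse.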

How the results depend on the processing

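The 7 mean ratios of members and the 3 counts were recomputed under the alternatives. The number of members past the threshold was 2, and it was 1 with a value required on all 6 arrays, which removes Cd177, 1 with unmoderated variances, 1 with a fold floor of 2 and 0 to 1 without single mice. All probes past the threshold numbered 2832, with 1444 for unmoderated variances, 174 at the fold floor and 1325 to 3036 without single mice. Genes of the 10 neutrophil lists past the threshold numbered 20 of 66, a share of 30.3% against 24.4% of all probes. They numbered 10 for unmoderated variances, 7 at the fold floor and 9 to 28 without single mice (9 without mouse 2, 12 without mouse 4, 11 without mouse 6 and 28 without mouse 3). Array weights raised all 3 counts, to 3 members, 3431 probes and 29 list genes. With unmoderated variances the named list genes Cebpa, Cxcl1, Il6, Tnf, Itgb2, Cybb, Myb, S100a4, S100g, Slpi, Alox15, Aif1, Clca1, Muc5ac, Cd247 and Gp9 lost their calls (adjusted p of 0.0548 to 0.128). Cd177, at -1.15, lost its call with unmoderated variances (limma's ordinary statistic, adjusted p = 0.129). The exact sign-flip permutation test, unadjusted, gave p = 0.0625 for Cd177 and p = 0.03125 for Mpo. These are the smallest p that 5 and 6 values allow, so Cd177 could not have passed 0.05 in this test. Camp passed with array weights at -0.26 (limma, adjusted p = 0.0304). S100a8 changed sign with scaled arrays (0.0495), quantile normalization (0.089) and array weights (0.017), and S100a9 with quantile normalization (0.059). Without single mice the mean ran from -1.40 to -0.83 for Cd177, -0.18 to -0.14 for Mpo, -0.27 to 0.16 for S100a8 and -0.34 to 0.19 for S100a9, with S100a8 at 0.158 and S100a9 at 0.192 without mouse 1 and S100a8 at 0.0752 and 0.006 without mice 2 and 5. Camp ran from -0.26 to -0.16, Ltf from -0.11 to -0.0095 and Elane from 0.045 to 0.092. Except for the fewer values of stricter filters, the cause of these changes was not tested. No paired analysis was possible because there is 1 group of mice against 1 pool. The signal over background of the spots is not known.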
